A study of Mus musculus with 12 samples.

Results

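The 7 genes described here, Ms4a4a, Ms4a4b, Ms4a4c, Ms4a6b, Ms4a6c, Ms4a6d and Ms4a7, belong to the MS4A cluster on mouse chromosome 19 and were taken by gene symbol from the deposited count tables. They are 7 of the 25619 genes listed in all 3 tables, and all 7 passed the filter on low counts that left 19436 genes for testing. The genes were picked with results from the same libraries already known, so their levels by group are a description and their adjusted p-values give only their place in a fit over all genes. The study measured total RNA of whole mouse pancreatic ductal adenocarcinoma tumours grown under the skin, by bulk RNA sequencing of 12 libraries in 4 groups of 3. The combination group received an agonistic antibody to CD40 and a blocking antibody to the interleukin-1 receptor IL-1R1, the CD40 agonist group the first antibody alone, the anti-IL-1R1 group the second alone, and the untreated group neither. Treated mice were injected into the abdominal cavity 2 times a week. The labels used here name no tumour line, mouse strain, age, antibody dose or duration of treatment, and do not say whether the untreated mice received a control antibody. Nothing in the labels shows whether the libraries of a group are from different animals, and the p-values therefore speak only of scatter among libraries, part of which may be technical.

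MS4A genes code for small proteins that cross the cell membrane several times and sit beside immune receptors; the best known relative, Ms4a1, codes for the B cell antigen CD20. In the mouse, several genes of the cluster are read in monocytes and macrophages, and some in T cells as well. Products of this family are known as partners of other receptors: MS4A4A of dectin-1 (Clec7a) on macrophages, and Ms4a4b of GITR (Tnfrsf18) on mouse T cells. CD40, the receptor that the agonist stimulates, is carried by macrophages, dendritic cells and B cells.

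The cluster spans 283.8 kb of chromosome 19, from 11298403 to 11582213 in build mm39, in the coordinates given by the tables. From one end to the other the members are Ms4a7 (ENSMUSG00000024672, minus strand), Ms4a4a (ENSMUSG00000101389), Ms4a4c (ENSMUSG00000024675), Ms4a4b (ENSMUSG00000056290), Ms4a6c (ENSMUSG00000079419), Ms4a6b (ENSMUSG00000024677) and Ms4a6d (ENSMUSG00000024679, minus strand), the others being on the plus strand. Ms4a4b and Ms4a4c are neighbours and resembled each other also upstream of the gene. Of the 300-base windows that RefSeq gives for members (250 bases before the start site and 50 after it, build GRCm38.p6), that pair had the highest identity, 73.8% over 321 alignment columns, against 53.6% for the next pair. Both windows are shown because these are the members that differed most between groups. Capitals mark GAGGAA, the core of a motif bound by the myeloid factor PU.1, searched on both strands. The letters lie at bases -64 to -59 before the start of Ms4a4b and -61 to -56 before that of Ms4a4c.
Ms4a4b promoter, chr19:11443308-11443607, plus strand: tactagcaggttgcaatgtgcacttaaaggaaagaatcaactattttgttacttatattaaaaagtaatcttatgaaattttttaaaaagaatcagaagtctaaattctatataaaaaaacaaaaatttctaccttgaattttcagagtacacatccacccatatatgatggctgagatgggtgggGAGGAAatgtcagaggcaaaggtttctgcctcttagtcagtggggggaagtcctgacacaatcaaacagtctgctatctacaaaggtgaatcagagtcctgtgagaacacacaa
Ms4a4c promoter, chr19:11407411-11407710, plus strand: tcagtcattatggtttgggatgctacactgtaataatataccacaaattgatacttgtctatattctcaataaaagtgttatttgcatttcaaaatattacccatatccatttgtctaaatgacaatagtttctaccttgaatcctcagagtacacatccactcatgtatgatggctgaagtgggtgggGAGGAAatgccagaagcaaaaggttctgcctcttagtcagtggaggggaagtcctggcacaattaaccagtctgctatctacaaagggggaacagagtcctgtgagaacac

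GAGGAA was also present after the start site of 1 of the 2 windows of Ms4a7. That makes 3 of the 7 windows of members, from 3 of the 6 members with a window. Among all 32851 promoter windows of that length the share was 28.3%. The hits of Ms4a4b and Ms4a4c lie in similar windows and are not separate occurrences. The letters also lay, on either strand, in windows of Ms4a3, Ms4a14 and Ms4a15, which are not members. The search covered 3 further motifs on both strands: the interferon-stimulated response element, written as GAAA, any 2 bases and GAAA, the gamma-activated site, written as TTCNNNGAA, and the PU.1 and IRF composite, written as GGAA, any 2 bases and GAAA, whose first letters can overlap the PU.1 core. None of the 7 windows held any of them, and among all promoter windows the shares were 3.44%, 8.30% and 2.72%. Absence from the window says only that these letters are not in it. Ms4a6d had no entry.

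Reads of related members may be shared. In the GENCODE vM21 transcripts, 8.19% of the 50-base windows of Ms4a4c, 5.85% of Ms4a6c, 3.44% of Ms4a6b, 2.31% of Ms4a6d and 2.25% of Ms4a4b also occurred in another MS4A gene, while Ms4a4a and Ms4a7 had no shared window. Ms4a6c also overlaps BE692007, a non-coding RNA gene on the other strand that averaged 2.38 CPM over all libraries, and whether the counting used strand is not stated, so reads of that pair cannot be told apart. The annotation that the authors counted with is not given in the sources used here.

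Library totals ran from 27.8 M to 53.3 M counted reads. Combination replicate 1 and CD40 agonist replicate 2 stood apart in skeletal muscle transcripts, with summed levels over the list's 8 genes of 3482 and 1802 counts per M reads (CPM), while the other 10 libraries had between 1.69 and 44.5 CPM. CD40 agonist replicate 3 lay low for interferon, T cell and monocyte genes within its group.

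Together the members took 186.2, 147.3 and 192.2 CPM in the combination tumours, 90.2, 158.7 and 71.8 CPM in the CD40 agonist tumours, 64.8, 50 and 60.1 CPM in the anti-IL-1R1 tumours and 73.4, 55.0 and 78.2 CPM in the untreated tumours. In all 3 combination libraries the sum lay above every anti-IL-1R1 and untreated library, and CD40 agonist replicate 2 alone among the remaining libraries reached the combination range. Because the samples are bulk tissue, fewer or more cells of a type and less or more RNA per cell cannot be told apart in any of these values.

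**Figure D1:**
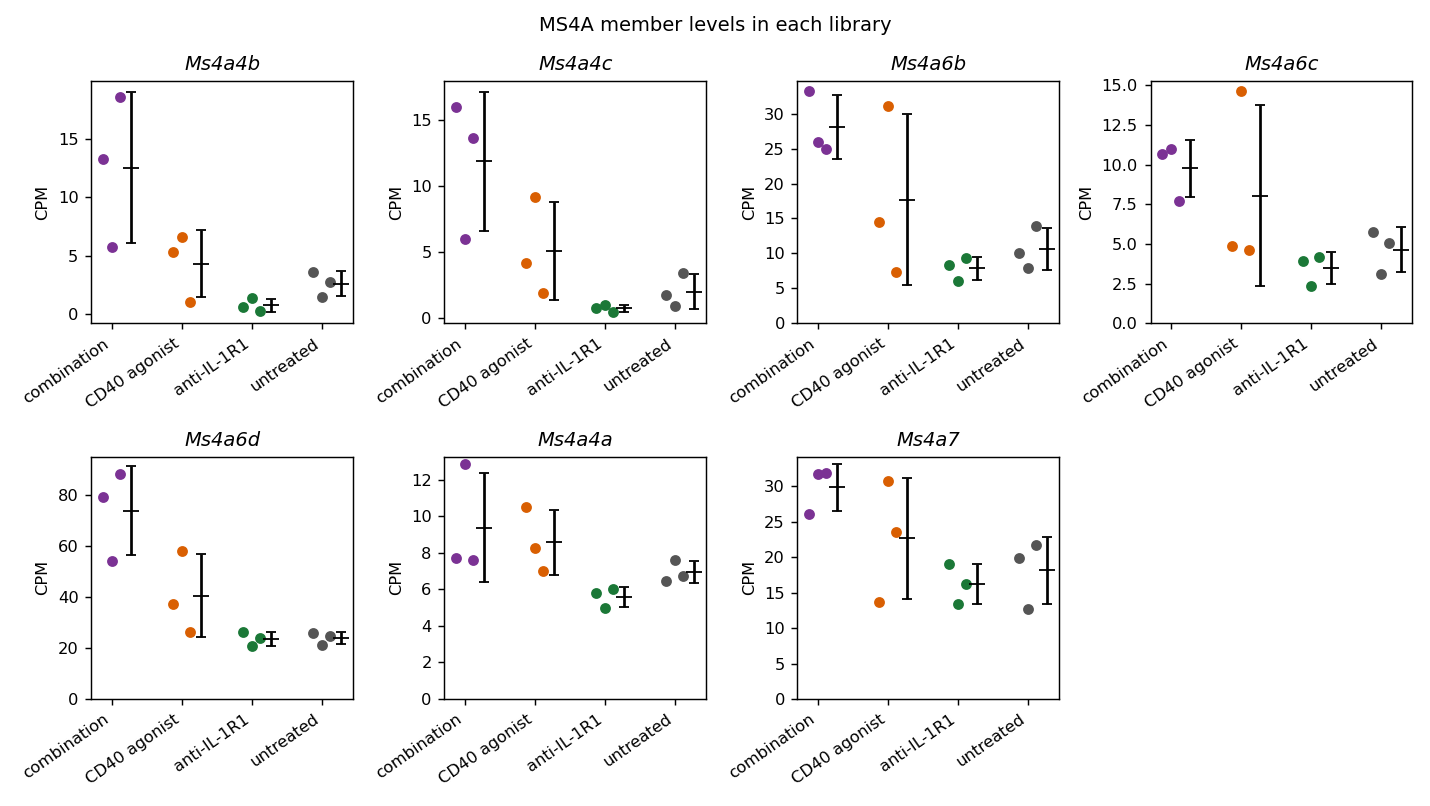
Level of each of the 7 members in every library, in CPM, by group from combination to untreated. Points are single libraries, and the dash with its bar beside them is the group mean with its SD. Ms4a6d is highest, at 54.1 to 87.9 CPM in the combination tumours and 21.3 to 25.8 CPM in the untreated tumours, while the Ms4a4a ranges of those groups overlap.

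Divided by the deposited gene length, so that genes can be set side by side, Ms4a6d had the highest mean level over the 12 libraries, 23.3 CPM per kb. Ms4a4a followed with 9.12 CPM per kb, Ms4a7 with 4.88, Ms4a6b with 3.58, Ms4a6c with 3.17, Ms4a4c with 2.82 and Ms4a4b with 0.576 CPM per kb. The last value depends on a deposited length of 8780 bases for Ms4a4b, which is the longest of the 7. Ms4a6d made up 52.8% ± 6.92 of the members' summed level per kb in the combination tumours, 46.4% ± 1.49 with the CD40 agonist, 48.8% ± 1.33 with anti-IL-1R1 and 42.8% ± 2.02 in untreated tumours (SD, n = 3 each). Ms4a4c made up 8.29% ± 3.04 with the combination and 3.48% ± 1.94 in untreated tumours, and Ms4a4a 14.6% ± 6.68 with the combination and 26.1% ± 5.31 in untreated tumours. Shares in combination and untreated libraries did not overlap for Ms4a6d and Ms4a4a, and overlapped for Ms4a4c. These shares were not tested.

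Ms4a4b codes for a membrane protein best known from mouse T cells. Its level was 13.2, 5.73 and 18.6 CPM in the combination tumours, 5.32, 6.61 and 1.06 CPM with the CD40 agonist, 0.601, 1.37 and 0.233 CPM with anti-IL-1R1 and 3.60, 1.498 and 2.72 CPM in untreated tumours. Every combination library was above every untreated and anti-IL-1R1 library, and every anti-IL-1R1 library was below every untreated one. Relative to untreated tumours the log2 fold change was 2.26 (SE 0.72) with the combination, with an adjusted p of 0.163 in edgeR's quasi-likelihood test over all genes, and -1.85 (SE 0.74) with anti-IL-1R1, with an adjusted p of 1. Relative to anti-IL-1R1 alone it was called higher with the combination, by 4.11 on the log2 scale (SE 0.79, edgeR adjusted p = 0.0258).

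Ms4a4c, the neighbouring gene, is read in mouse monocytes and macrophages. It measured 16.0, 5.97 and 13.6 CPM in the combination tumours, 4.16, 9.20 and 1.93 CPM with the CD40 agonist, 0.810, 0.987 and 0.466 CPM with anti-IL-1R1 and 1.75, 0.904 and 3.44 CPM in untreated tumours. The combination libraries again lay above both groups that received no CD40 agonist, and the CD40 agonist libraries overlapped with the combination and with the untreated ones. The log2 fold change of the combination was 2.55 (SE 0.62, edgeR adjusted p = 0.0919) against untreated tumours and 3.98 (SE 0.67, edgeR adjusted p = 0.0245) against anti-IL-1R1.

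Ms4a6d, another macrophage member, was the most abundant in every group. Its level was 79.2, 54.1 and 87.9 CPM in the combination tumours, 37.1, 58.1 and 26.3 CPM with the CD40 agonist, 26.2, 20.9 and 23.7 CPM with anti-IL-1R1 and 25.7, 21.3 and 24.5 CPM in untreated tumours. Among the members it alone had all 6 libraries with CD40 agonist above all 6 without it, which 0.391% of tested genes did, and its anti-IL-1R1 and untreated means, 23.6 ± 2.67 and 23.9 ± 2.30 CPM (SD, n = 3 each), lay within the spread of either group. It was called higher with the combination than in untreated tumours, by 1.63 on the log2 scale (SE 0.26, edgeR adjusted p = 0.0405). With the CD40 agonist alone the log2 fold change against untreated was 0.76 (SE 0.26, edgeR adjusted p = 0.9999).

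Ms4a6b and Ms4a6c, both found in monocytes and macrophages, shared a pattern in which 1 CD40 agonist library was as high as the combination. Ms4a6b had 33.3, 26.0 and 24.9 CPM in the combination tumours, 14.5, 31.2 and 7.31 CPM with the CD40 agonist, 8.31, 6.03 and 9.27 CPM with anti-IL-1R1 and 10.1, 7.88 and 13.9 CPM in untreated tumours. Ms4a6c had 10.7, 11.0 and 7.72 CPM in the combination tumours, 4.89, 14.7 and 4.61 CPM with the CD40 agonist, 3.95, 2.33 and 4.19 CPM with anti-IL-1R1 and 5.77, 3.08 and 5.09 CPM in untreated tumours. For both genes CD40 agonist replicate 2, a library rich in muscle transcripts, was the highest of its group and the other 2 of that group lay in or near the untreated range. The log2 fold change of the combination against untreated tumours was 1.40 for Ms4a6b (SE 0.41, edgeR adjusted p = 0.135) and 1.07 for Ms4a6c (SE 0.44, edgeR adjusted p = 0.259).

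Ms4a7 and Ms4a4a, which mark mature and tissue macrophages, differed least between combination and untreated tumours. Ms4a7 had 26.0, 31.7 and 31.8 CPM in the combination tumours, 13.7, 30.7 and 23.6 CPM with the CD40 agonist, 19.1, 13.5 and 16.3 CPM with anti-IL-1R1 and 19.9, 12.8 and 21.7 CPM in untreated tumours. Ms4a4a had 7.70, 12.9 and 7.59 CPM in the combination tumours, 10.5, 8.27 and 6.98 CPM with the CD40 agonist, 5.78, 4.97 and 6.01 CPM with anti-IL-1R1 and 6.47, 7.60 and 6.74 CPM in untreated tumours. Combination and untreated libraries did not overlap for Ms4a7 and did for Ms4a4a, where 1 combination library, replicate 2, was the highest of all 12. The log2 fold change against untreated tumours was 0.72 for Ms4a7 (SE 0.28, edgeR adjusted p = 0.240) and 0.44 for Ms4a4a (SE 0.27, edgeR adjusted p = 0.465).

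**Figure D2:**
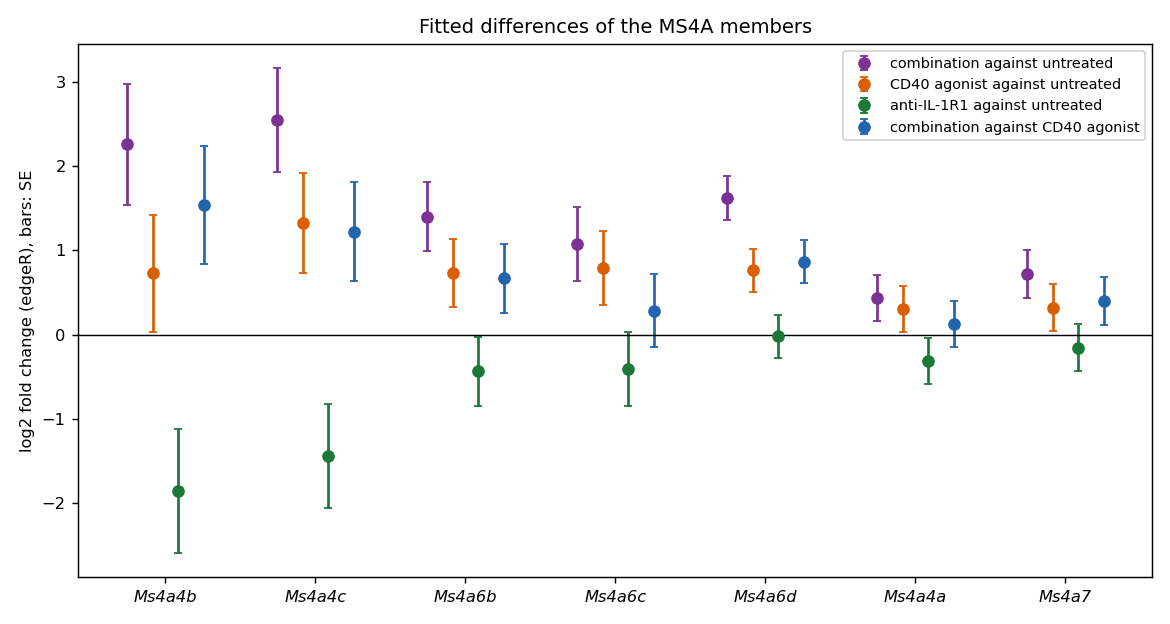
Log2 fold change of each member in 4 of the comparisons, from the fit over all genes, with its standard error as a bar. With the combination against untreated tumours the values run from 0.44 for Ms4a4a to 2.55 for Ms4a4c, and with anti-IL-1R1 alone all 7 lie below 0, Ms4a6d at -0.02.

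Set against untreated tumours, all 7 members had a positive log2 fold change with the combination, with a median of 1.40, against 0.00 over all tested genes, of which 50.2% were positive. For 6 of the 7, all but Ms4a4a, the 3 combination libraries lay above the 3 untreated libraries, as 10.7% of tested genes did. Of the 7, Ms4a6d was called higher at an edgeR adjusted p under 0.05, a call that 0.0206% of tested genes received in that direction, and the other 6 were not called. An unadjusted edgeR p under 0.05 was found for 6 members, all but Ms4a4a, and for 8.73% of tested genes in that direction. The call of Ms4a6d was lost when any 1 of 8 libraries was left out (CD40 agonist replicate 1, combination replicate 3, and each anti-IL-1R1 and untreated replicate), and its edgeR adjusted p ran from 0.00632 without CD40 agonist replicate 3 to 0.243 without untreated replicate 1. Without combination replicate 2 and CD40 agonist replicate 3 in turn, 2 and 3 members were called. Calls over all genes also moved widely in that comparison, from 0 to 550 when 1 library was left out.

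With the CD40 agonist alone against untreated tumours all 7 log2 fold changes were positive, with a median of 0.73, against 0.01 over all tested genes, of which 51.7% were positive. The groups did not overlap for 1 member, Ms4a6d, as for 5.14% of genes. No member and none of the other genes was called (0% of tested genes), and 2 members, Ms4a6d and Ms4a4c, had an unadjusted edgeR p under 0.05, which 1.8% of tested genes had in that direction. The values leaned on CD40 agonist replicate 2: without it Ms4a6b was at 0.037, Ms4a6c at 0.029 and Ms4a7 at 0.040, and Ms4a4b at 0.29, Ms4a6d at 0.41 and Ms4a4c at 0.58. Ms4a4a had its lowest value, 0.14, without CD40 agonist replicate 1.

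With anti-IL-1R1 alone all 7 log2 fold changes were negative, with a median of -0.41, against 0.00 over all tested genes, of which 50.1% were negative. Ms4a4b and Ms4a4a were lower in all 3 anti-IL-1R1 libraries than in any untreated library, as 4.99% of genes were. None was called (0% of tested genes), and Ms4a4b and Ms4a4c had an unadjusted edgeR p under 0.05, which 0.787% of genes had in that direction. Values of Ms4a6d were close to 0 in that comparison, at -0.02 (SE 0.26), and turned positive when 1 library was left out, at 0.058 without anti-IL-1R1 replicate 2 and 0.039 without untreated replicate 1. Ms4a4c was at -0.84 and Ms4a7 at -0.01 without untreated replicate 3, against -1.44 and -0.15 with all libraries.

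Against the CD40 agonist alone the combination gave 7 positive log2 fold changes with a median of 0.67, against 0.00 over all tested genes, of which 50.3% were positive. These ran from 0.13 for Ms4a4a to 1.53 for Ms4a4b (SE 0.70). In no member did the 3 combination libraries all exceed the 3 CD40 agonist libraries, as 3.54% of genes did, and none was called, where 0.00515% of tested genes were in either direction. The unadjusted edgeR p was under 0.05 for 2 members, Ms4a6d and Ms4a4b, as for 2.72% of tested genes in that direction. Without combination replicate 2 the value of Ms4a4a was -0.17, and without CD40 agonist replicate 3 those of Ms4a4a and Ms4a6c were -0.00278 and -0.00125. Without CD40 agonist replicate 2 the values of Ms4a6c and Ms4a6b were 1.04 and 1.36, against 0.28 and 0.67 with all libraries.

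Against anti-IL-1R1 alone the combination libraries were higher without overlap for all 7 members, as for 8.8% of tested genes, with a median log2 fold change of 1.64, against -0.02 over all tested genes, of which 48.1% were positive. All 7 had an unadjusted edgeR p under 0.05, as 8.05% of tested genes had in that direction. Of the 7, 4 were called higher, Ms4a4b, Ms4a4c, Ms4a6d and Ms4a6b, against 1.89% of tested genes in that direction. Ms4a6d had a log2 fold change of 1.64 (SE 0.26, edgeR adjusted p = 0.0236) and Ms4a6b one of 1.83 (SE 0.42, edgeR adjusted p = 0.0422). No member was called without anti-IL-1R1 replicate 1, 2 or 3 or without combination replicate 3, in fits with 1 library fewer. Without CD40 agonist replicate 2 there were 5 called, and without any 1 of the remaining libraries 3 or 4. Calls over all genes ran from 0 to 660 when 1 library was left out.

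Pooling the 6 libraries of tumours that received the CD40 agonist against the 6 of tumours that did not, the same 4 members were called higher, against 1.8% of tested genes in that direction. Ms4a4c had a log2 fold change of 2.65 (SE 0.44, edgeR adjusted p = 0.0227), Ms4a4b of 2.42 (SE 0.52, edgeR adjusted p = 0.0373), Ms4a6b of 1.28 (SE 0.29, edgeR adjusted p = 0.0417) and Ms4a6d of 1.20 (SE 0.18, edgeR adjusted p = 0.0217). Ms4a6c, Ms4a7 and Ms4a4a were not called, at 1.14, 0.60 and 0.53. All 7 values were positive, as were 48.6% of those of all tested genes, and all 7 had an unadjusted edgeR p under 0.05, as 8.78% of tested genes had in that direction. Without both libraries rich in muscle transcripts 2 members were called. No member was called without CD40 agonist replicate 1, anti-IL-1R1 replicate 1 or 3, or untreated replicate 1 or 2, and 2 were called without any 1 of CD40 agonist replicate 2, anti-IL-1R1 replicate 2, combination replicate 1 or 3, or untreated replicate 3. Without combination replicate 2 there were 3, and without CD40 agonist replicate 3 there were 5. Calls over all genes ran from 0 to 765 in those fits with 1 library left out. These comparisons share libraries and are not separate evidence.

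The interaction asks whether anti-IL-1R1 differed in its effect between tumours with and without the CD40 agonist. All 7 values were positive on the log2 scale, with a median of 0.88, against -0.03 over all tested genes, of which 47.3% were positive. Ms4a4b had 3.39 (SE 1.02), Ms4a4c 2.66 (SE 0.85) and Ms4a6d 0.88 (SE 0.36), with unadjusted edgeR p of 0.00576, 0.00801 and 0.0289, and 2.1% of tested genes had one under 0.05 in that direction. No member and no other gene was called (0% of tested genes), so the effects were not shown to differ at this depth and number of libraries.

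In the authors' deposited tables, which hold 3 of these comparisons, no member had an adjusted p under 0.05. Few genes of any kind did: 22 of 27880 listed with the combination against the CD40 agonist. With anti-IL-1R1 against untreated tumours 23 of 29098 did, and with the CD40 agonist against untreated tumours 16 of 29014. The lowest were 0.269 for Ms4a6d with the CD40 agonist against untreated tumours, 0.314 for Ms4a4b with anti-IL-1R1 against untreated tumours and 0.637 for Ms4a6d with the combination against the CD40 agonist.

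With the combination against untreated tumours and in the pooled CD40 agonist comparison, genes found in most macrophages had smaller median differences than the members. Of 12 such genes, 0 were called by edgeR with the combination against untreated tumours and 5 had an unadjusted p under 0.05, with a median log2 fold change of 0.44. In the pooled comparison 2 were called higher, with a median of 0.57. The members were picked with results from these libraries known, which favours larger medians for them, so that contrast is a description only. The 2 called in the pooled comparison were Fcgr1, a receptor for IgG, and Itgam, an integrin also carried by neutrophils. With anti-IL-1R1 against untreated tumours the list's median was -0.43, close to the members' -0.41. Csf1r, the receptor for the macrophage growth factor, averaged 81.5 ± 22.2 CPM in the combination tumours and 71.1 ± 11.7 CPM in untreated tumours (SD, n = 3 each), and Adgre1, the F4/80 antigen, 11.6 ± 6.21 CPM in the combination tumours and 17.2 ± 3.33 CPM in untreated tumours. Neither differed by more than its spread. None of the 12 genes was at 0 in any library.

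Each member was then expressed relative to that list within each library, as its log2(CPM + 0.5) minus the mean of the list on the same scale. Relative to untreated tumours the difference in the combination tumours was 1.87 for Ms4a4c, 1.55 for Ms4a4b, 1.15 for Ms4a6d, 0.95 for Ms4a6b, 0.59 for Ms4a6c, 0.30 for Ms4a7 and -0.06 for Ms4a4a. The last value lay within the spread of its groups (SD 0.39 in combination and 0.32 in untreated tumours). For Ms4a6d, the relative level was 0.06, -0.44 and 0.39 in the combination tumours and -1.17, -1.06 and -1.19 in untreated tumours, without overlap. With the CD40 agonist alone it was -0.40, -0.54 and -0.88, and with anti-IL-1R1 alone -0.92, -0.59 and -0.70. Both of those groups also lay above every untreated library. Combination and untreated libraries did not overlap for Ms4a4b, Ms4a4c, Ms4a6b and Ms4a6c either, and overlapped for Ms4a7 and Ms4a4a. With Csf1r, Cd68 and Adgre1 alone in place of the list, the differences were 2.24 for Ms4a4c, 1.92 for Ms4a4b and 1.51 for Ms4a6d. They were 1.32 for Ms4a6b, 0.96 for Ms4a6c, 0.67 for Ms4a7 and 0.31 for Ms4a4a. The value of every member thus depended on the list and rose by the same amount, and that of Ms4a4a changed sign.

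**Figure D3:**
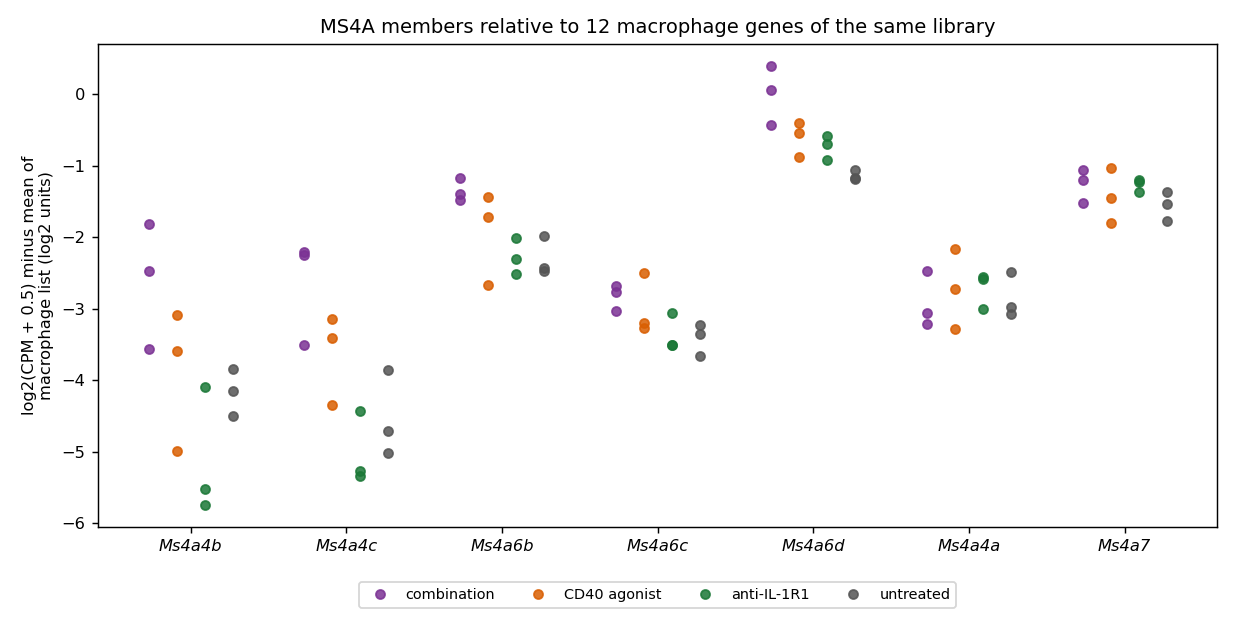
Level of each member relative to the mean of 12 macrophage genes in the same library, as a log2 difference, for the 4 groups. Each point is 1 library. Combination points lie above untreated points for Ms4a6d, at -0.44 to 0.39 against -1.19 to -1.06. For that gene the points of both single treatments also lie above the untreated ones. The groups overlap for Ms4a4a.

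Genes of other cell types and of interferon responses were high in the same libraries as several members. Of 14 T and NK cell genes, 13 had a positive log2 fold change with the combination against untreated tumours, with a median of 1.502, and 0 were called by edgeR, with 4 at an unadjusted p under 0.05. Their summed level was 38.2 to 139.1 CPM in the combination tumours, 14.1 to 77.2 CPM with the CD40 agonist, 8.502 to 21.2 CPM with anti-IL-1R1 and 23.2 to 49.5 CPM in untreated tumours, and none was at 0 in any library. Over the 12 libraries, Ms4a4b followed the T cell receptor chain Cd3e with r = 0.85 (0.92 after removal of group means) and the macrophage gene Csf1r with r = 0.47 (-0.06). With Cd3e, Ms4a4c gave r = 0.71 (0.74 after removal of group means), Ms4a6b 0.60 (0.46) and Ms4a6d 0.58 (0.715). Ms4a6c gave 0.43 (0.11), Ms4a4a 0.27 (-0.31) and Ms4a7 0.22 (-0.24) with that gene. Cd3e averaged only 0.869 CPM over all libraries, with 0.071 CPM in CD40 agonist replicate 3 and 0.070 CPM in anti-IL-1R1 replicate 3. Its coefficients thus rest in part on very low values. The log2 fold change of Cd3e with the combination against untreated tumours was 0.41. Ms4a6c followed Csf1r with r = 0.88 (0.93 after removal of group means), and Ms4a6d did with r = 0.52 (0.42). Of 14 type I interferon response genes, all had a positive log2 fold change with the combination against untreated tumours, with a median of 2.33 and 0 called by edgeR, 14 having an unadjusted p under 0.05, and 10 were called in the pooled CD40 agonist comparison. For Irf7, a regulator of interferon genes, r was 0.93 with Ms4a4b, 0.87 with Ms4a6d and 0.58 with Ms4a7, and 0.72, 0.88 and -0.005 after removal of group means. Of 10 interferon gamma response genes, all had a positive log2 fold change with the combination against untreated tumours, with a median of 2.49 and 0 called by edgeR, 8 having an unadjusted p under 0.05, and 5 were called in the pooled comparison. These coefficients describe 12 libraries that share their groups, and the part of T cells or interferon in the members' values was not tested. Of 6 tested neutrophil genes, 0 were called by edgeR with the combination against untreated tumours and 2 had an unadjusted p under 0.05, with a median log2 fold change of 1.43. In the pooled comparison 1 was called, S100a9, with a median of 1.94. Their list summed to 116.5 to 482.1 CPM in the combination tumours, 65.8 to 703.2 CPM with the CD40 agonist, 29.1 to 65.6 CPM with anti-IL-1R1 and 37.5 to 129.4 CPM in untreated tumours. Mmp9 alone made up most of each sum, with 102.6 to 474.7 CPM in the combination tumours and 61.0 to 684.1 CPM with the CD40 agonist. The other tested genes of the list averaged 5.03 CPM or less over all libraries. The defining marker Ly6g was near or at 0 in every library, and the part of neutrophils in the members' values was not tested. Of 10 epithelial genes of the tumour cells, 1 was called lower with the combination against untreated tumours, with a median log2 fold change of -1.10. Their summed level was 2214 to 3110 CPM in the combination tumours and 3644 to 5262 CPM in untreated tumours, and the part of the tumour cell content in the members' values was not tested.

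Ly6c2, a marker of inflammatory monocytes, averaged 10.5 ± 5.76 CPM in the combination tumours and 1.57 ± 0.873 CPM in untreated tumours (SD, n = 3 each), with a log2 fold change of 2.74 that was not called (edgeR adjusted p = 0.315). Its r over the libraries was 0.94 with Ms4a6b, 0.90 with Ms4a4b and 0.89 with Ms4a6d. Of the 8 monocyte genes 0 were called by edgeR in that comparison and 3 had an unadjusted p under 0.05. The part of monocytes in the members' values was not tested.

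**Figure D4:**
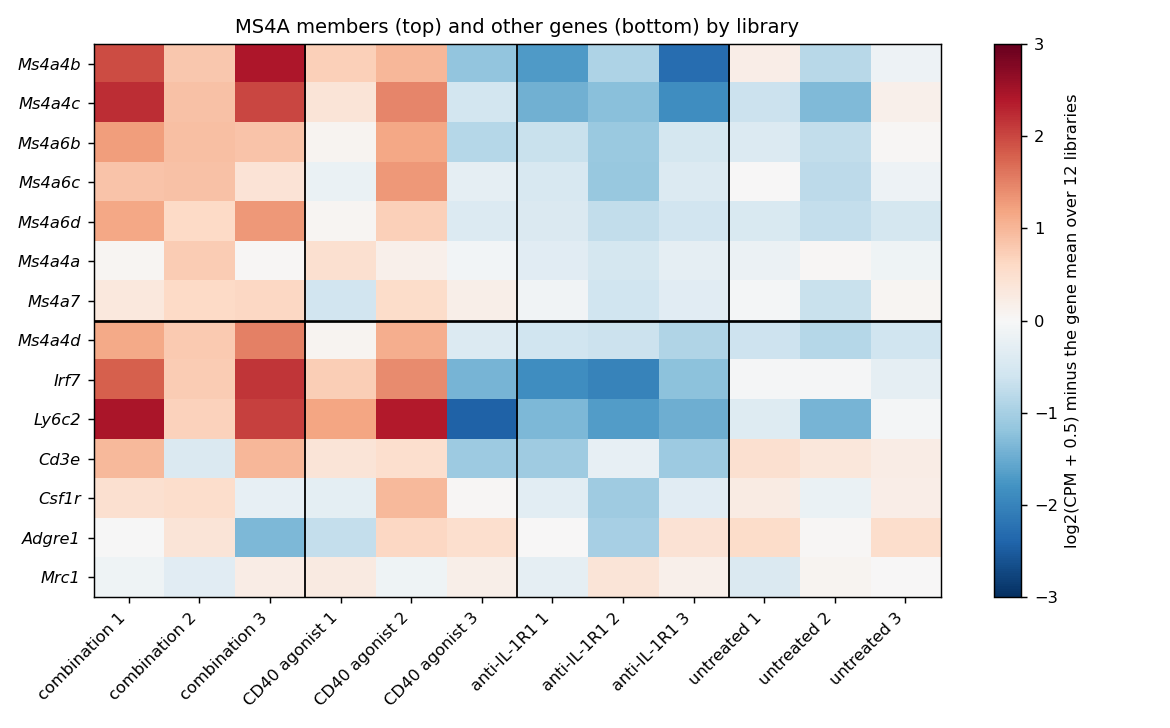
Level of the 7 members and of 7 other genes in the 12 libraries, as log2(CPM + 0.5) centred on each gene's mean, with libraries ordered from combination to untreated. CD40 agonist replicate 2 resembles the combination libraries for Ms4a6b, at 31.2 CPM, and Ms4a6c, at 14.7 CPM, and CD40 agonist replicate 3 lies low for Ms4a4b, at 1.06 CPM.

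Ms4a4b and Ms4a4c followed each other with r = 0.95 over 12 libraries (0.83 after removal of group means), and Ms4a6b and Ms4a6c with r = 0.93 (0.86). Both pairs share transcript windows, 135 of the 198 shared windows of Ms4a4b being with Ms4a4c and 117 of the 157 of Ms4a6b with Ms4a6c. Ms4a4c and Ms4a6d gave r = 0.94 (0.83). Ms4a4a and Ms4a7, the members with no shared window, gave r = 0.39, and -0.26 after removal of group means. Within groups, Ms4a4a followed none of the other members closely, with r between -0.36 and 0.14.

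Among 12896 other genes averaging 1 CPM or more, predicted and clone-named genes left out, the mean profile of the 7 was most closely followed by Il2rg, the common chain of cytokine receptors (r = 0.990), and Sirpa, a myeloid inhibitory receptor (r = 0.987). Ptpn6, Unc93b1, Nod1, Gpr18, Bst1 and Ctsz followed with r of 0.977 to 0.982. When the 2 libraries rich in muscle transcripts were left out, 4 of these 8 remained among the 8 closest, and 3 ranked among the first 8 by Spearman's rho. For single members the closest genes were Gbp8 for Ms4a4b (r = 0.983), Ncf4 for Ms4a4c (r = 0.987), Dock2 for Ms4a6c (r = 0.983), Sirpa for Ms4a6b (r = 0.973), Ms4a4d for Ms4a6d (r = 0.985), Inpp1 for Ms4a7 (r = 0.918) and Armc6 for Ms4a4a (r = 0.911). Ms4a7 and Ms4a4a had the lowest of these coefficients, which describe 12 libraries and the groups they share.

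Ms4a4d, an MS4A gene inside the cluster that is not among the 7, had 18.4, 14.4 and 24.2 CPM in the combination tumours, 8.59, 17.9 and 5.97 CPM with the CD40 agonist, 5.15, 5.00 and 4.10 CPM with anti-IL-1R1 and 5.13, 4.27 and 5.17 CPM in untreated tumours. It was called in the pooled CD40 agonist comparison at a log2 fold change of 1.58 (SE 0.25, edgeR adjusted p = 0.0223) and not with the combination against untreated tumours, at 1.97 (edgeR adjusted p = 0.0598). Of 17 further family genes, 8 were listed in all 3 tables and 7 were tested, and Ms4a4d was the 1 called. Ms4a1, which marks B cells, summed to 644 reads over the 12 libraries, of which untreated replicate 3 held 165 and combination replicate 1 held 145. Ms4a2, the beta chain of the mast cell IgE receptor, had 54 reads in all and 0 in the 3 CD40 agonist libraries. Ms4a14 had a log2 fold change of 1.22 with the combination against untreated tumours and was not called (edgeR adjusted p = 0.143). Tmem176a and Tmem176b, relatives on chromosome 6, had means over all libraries of 64.8 and 136 CPM and were not called, with log2 fold changes of 0.40 and 0.37 against untreated tumours.

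Known receptor partners of MS4A proteins and the signalling genes behind them were listed as 8 genes. With the combination against untreated tumours 0 were called by edgeR and 5 had an unadjusted p under 0.05, with a median log2 fold change of 0.85, and in the pooled CD40 agonist comparison 4 were called higher, with a median of 0.93. Those were Fcer1g and Tyrobp, adaptors of activating receptors, the kinase Syk, and Card9, which acts below dectin-1. Clec7a (dectin-1) averaged 67.7 ± 45.6 CPM in the combination tumours and 16.3 ± 2.89 CPM in untreated tumours (SD, n = 3 each), with a log2 fold change of 2.06 and an edgeR adjusted p of 0.150. Tnfrsf18 (GITR) averaged 3.52 ± 1.98 CPM with the combination and 2.75 ± 0.426 CPM in untreated tumours, and Trem2 averaged 23.9 ± 2.02 CPM with the combination and 20.1 ± 4.73 CPM in untreated tumours, both within the spread. Kit, a receptor of mast cells, had a log2 fold change of 0.01. Over all genes, between 0 and 765 were called in the pooled comparison when 1 library was left out.

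The median difference was smaller for genes of other families in and around the cluster than for the members. The members were picked with results from these libraries known, which favours a larger median for them, so this is a description only. From 500 kb before the span to 500 kb after it lay 19 tested genes of other families, of which 13 averaged 1 CPM or more. The median log2 fold change of the 19 was 0.13 with the combination against untreated tumours and 0.16 in the pooled CD40 agonist comparison. Among them, ENSMUSG00000120878, BE692007, Gm8369 and Gm38275 lay within the span. Their values were 1.17, 0.88, -0.22 and 2.18 with the combination against untreated tumours, and 0.59, 1.20, 0.19 and 1.70 in the pooled comparison. None of those was called, and Gm8369 and Gm38275 averaged 0.60 and 0.41 CPM. Of these 19, 1 was called in the pooled comparison, Slc15a3, a transporter of small peptides in the lysosome membrane. It averaged 29.4 CPM in the combination tumours, 19.4 CPM with the CD40 agonist, 7.36 CPM with anti-IL-1R1 and 12.9 CPM in untreated tumours, with a pooled log2 fold change of 1.29 (edgeR adjusted p = 0.0334). The T cell gene Cd6, at 1.85 (edgeR adjusted p = 0.197), and the non-coding RNA gene AW112010, at 2.40, had larger values and were not called; Slc15a3, Cd6 and AW112010 were named after their values were seen.

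**Figure D5:**
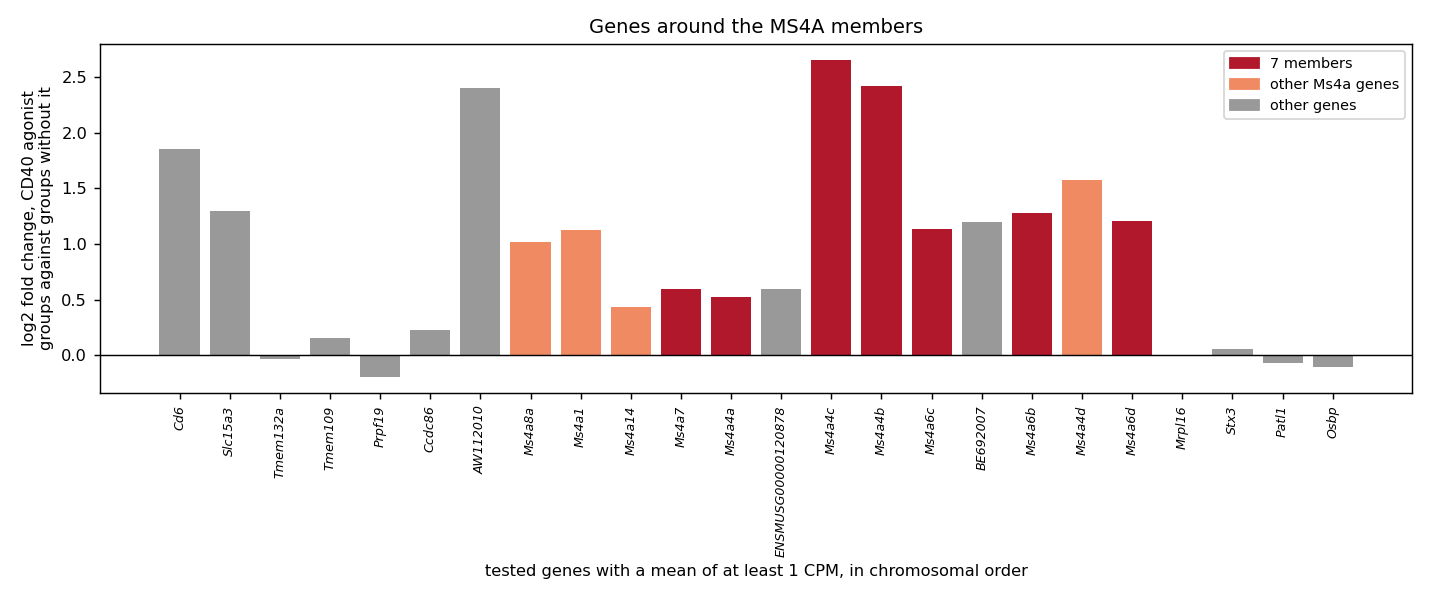
Log2 fold change of tested genes within 500 kb of the cluster in the pooled CD40 agonist comparison, as bars in chromosomal order, for those averaging 1 CPM or more. Colours mark the 7 members, 4 other Ms4a genes and 13 other genes, and Ms4a4c reaches 2.65, AW112010 2.40, Cd6 1.85 and Slc15a3 1.29.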

How the data were processed

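Bulk RNA sequencing of mouse tumours gave read counts per gene, which the authors deposited in 3 tables of 6 libraries each, with gene length in bases, per the file headers. Reads were placed on build mm39 and DESeq2 was used, per the submitters' processing notes. For the aligner, the counter, its strand setting and the annotation release, nothing is given in the sources used here. The log2 fold change and the p-value columns were deposited by the authors, and are quoted only as such. A further 42 columns of per-sample values were not used.

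Tables were joined by gene ID on the 25619 genes in all 3, and counts of a library that appears in more than 1 table were identical (0 mismatches). Genes passing edgeR's expression filter (19436) were scaled by TMM and fitted with edgeR 4.0.16 (R 4.3.3) in a quasi-likelihood model with 1 mean per group over all 12 libraries, 8 residual degrees of freedom and Benjamini-Hochberg adjustment over all tested genes, and called at an adjusted p under 0.05. The biological coefficient of variation was 0.446. CPM divides by the TMM-scaled library total. The fit was tested on simulated data with known changes.

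Members, marker lists and tests were chosen with earlier results of these data known. Genes named outside the members were the MS4A relatives, list genes, and, by Pearson's r of log2(CPM + 0.5), the 8 genes closest to the members' mean profile and the 3 closest to each member, of which the first is printed. Alternatives were DESeq2 1.42.0, limma 3.58.1 with voom, other scalings, filters and fits, a replicate block and leaving out libraries. No source says what the replicate numbers mean. Same-numbered libraries correlated between -0.311 and 0.118 in their deviations from group means, with no comparison above 0.1 in every pair, so the numbers were not used as pairs.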

Additional observations from a re-analysis of the deposited data

How the results depend on the processing

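Counts of members called depended on the method. With the combination against untreated tumours, 1 member was called in edgeR, 4 in DESeq2, 0 in limma voom, 0 with the replicate number as a block, 2 in a fit of those groups alone with the replicate block, added after seeing the data, and 0 to 3 when 1 library was left out. Against anti-IL-1R1, 4 were called in edgeR, 5 in DESeq2, 1 in limma voom, 0 with the replicate block in either fit, and 0 to 5 when 1 library was left out. In the pooled CD40 agonist comparison the 4 became 5 in DESeq2, 1 in limma voom, 0 with the replicate block, 2 without both libraries rich in muscle transcripts, and 0 to 5 when 1 library was left out. Replicate numbers mark no known pairing, so the block is no sign of a weaker effect. Over all genes, 0 were called in every comparison with the block in the fit of all 12 libraries. In the other 4 comparisons 0 members were called under every alternative, DESeq2 and limma voom included. Of 952 alternative fold changes of members, 853 kept their direction and their side of the threshold, 83 lost the call, 11 gained one and 5 changed sign. Those 5 were Ms4a6d with anti-IL-1R1 against untreated tumours, at 0.058 without anti-IL-1R1 replicate 2 and 0.039 without untreated replicate 1 (range without 1 library -0.10 to 0.058), and, with the combination against the CD40 agonist, Ms4a4a at -0.17 without combination replicate 2 and -0.00278 without CD40 agonist replicate 3 (range -0.17 to 0.29), and Ms4a6c at -0.00125 without that library (range -0.00125 to 1.04). Relative to Csf1r, Cd68 and Adgre1 alone, the differences between combination and untreated tumours were 0.31 for Ms4a4a, 1.92 for Ms4a4b and 2.24 for Ms4a4c. They were 1.32 for Ms4a6b, 0.96 for Ms4a6c, 1.51 for Ms4a6d and 0.67 for Ms4a7, and every member's value was higher than with the full macrophage list. The cause of these changes was not tested. With 3 libraries a group and a biological coefficient of variation of 0.446, small changes of single members could not be detected.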

Other observations

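Of 12 genes of alternatively activated and resident macrophages, 0 were called by edgeR with the combination against untreated tumours, 1 being higher and 1 lower at an unadjusted p under 0.05, with a median log2 fold change of 0.14. In the pooled CD40 agonist comparison 1 was called higher and 1 lower. Arg1, the enzyme arginase, was higher at a log2 fold change of 0.60 (edgeR adjusted p = 0.0334), averaging 202.2 CPM with the combination, 143.7 CPM with the CD40 agonist, 103.0 CPM with anti-IL-1R1 and 122.6 CPM in untreated tumours. Retnla, a secreted protein of alternatively activated mouse macrophages, was lower (edgeR adjusted p = 0.0462), at 0 CPM in all 3 combination libraries and 0.283 to 2.55 CPM in untreated tumours. Mrc1, the mannose receptor, averaged 69.6 CPM in the combination tumours and 67.5 CPM in untreated tumours. AW112010 averaged 202.9 CPM with the combination, 64.1 CPM with the CD40 agonist, 18.1 CPM with anti-IL-1R1 and 25.8 CPM in untreated tumours. Its pooled log2 fold change for the CD40 agonist was 2.40 and was not called (edgeR adjusted p = 0.0909).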
